A study of Mus musculus with 6 samples.

Results

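The genes that write, maintain and erase DNA methylation were followed in the methylome of mouse lung endothelial cells (EC) between infancy and young adulthood. The 7 genes were *Dnmt1*, *Dnmt3a*, *Dnmt3b*, *Uhrf1*, *Tet1*, *Tet2* and *Tet3*. A differentially methylated region (DMR) was assigned to one of them when its midpoint lay in the RefSeq gene body or within 10 kb of it. This held for 15 of the 18,333 DMRs of the list. Of these, 13 lay in *Dnmt3a*, 1 near *Tet2* and 1 in *Tet3*, and no DMR was listed at the other 4 genes.

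The list came from T-WGBS, whole genome bisulfite sequencing after tagmentation, in which a transposase cuts the DNA and adds adaptors in a single step and bisulfite converts unmethylated cytosines. EC from the lungs of C57BL/6N mice were compared between 2 ages, with 3 samples of infants aged 8 to 10 days and 3 of young adults aged 8 to 12 weeks. The study's methods describe the mice as female and the cells as sorted for CD31 and CD34 after depletion of cells with PTPRC (leukocytes), LYVE1 and PDPN (lymphatic EC) or LY76 (erythroid cells). Whether a sample held 1 or several animals is not given in the labels. The list holds, for each DMR, the mean methylation of each age group, shown here as the percentage of methylated calls averaged over the CpGs of the DMR. It holds no value per sample. Therefore no spread between replicates, no interval and no test can be given for any difference below. The read depth behind a single DMR is unknown beyond the coverage minimum per CpG that the study required in most samples of a group. The DMRs had been selected by the study with a test on the same samples, so that the differences are those of selected regions. A gene without a DMR had no listed region, which does not show that its methylation was unchanged. Over the whole list, 9911 DMRs (54.1%) gained and 8422 lost methylation in young adult EC. A list of DMRs cannot show the purity of a sort. At 6 of 8 endothelial marker genes it held 54 DMRs, 53 of them losses, and from 1 to 17 per gene. At 5 leukocyte and 2 erythroid marker genes it held 0. Among all genes, 26.6% held a DMR in the same window. Of 5 epithelial, 4 mesenchymal and 3 lymphatic markers, 1 of each kind held 1 DMR. The part of other cells in the results was not tested.

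DNA methylation in mammals is placed on cytosines of CpG dinucleotides. DNMT3A and DNMT3B set new marks, DNMT1 copies existing marks onto the daughter strand at replication, and UHRF1 recognises half-methylated CpGs and brings DNMT1 to them. The TET enzymes oxidise 5-methylcytosine to 5-hydroxymethylcytosine and beyond, which leads to its loss by dilution or by base excision repair. Bisulfite sequencing does not tell 5-methylcytosine from 5-hydroxymethylcytosine. *Dnmt3a* is read from alternative start sites. An upstream promoter gives the long protein, and an internal promoter gives the shorter DNMT3A2, which lacks the N-terminal part and is the main form in embryonic stem and germ cells.

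The sequences below are the DMRs on which the results turn and a stretch before a start site. They are read 5′ to 3′ on the plus strand of mm10, with the CpGs of the reference in capitals. The first is the loss DMR of *Dnmt3a* with the largest difference (chr12:3837171-3837456), and the second holds the first 300 bases of its gain DMR with the largest difference (chr12:3891929-3892228). The third gives the 250 bases before the internal *Dnmt3a* start site (chr12:3891494-3891743, from RefSeq promoters on mm10), which end 185 bases before that gain DMR. The last 2 are the whole DMRs at *Tet2* (chr3:133545495-133545540) and *Tet3* (chr6:83439580-83439617).
Dnmt3a largest loss: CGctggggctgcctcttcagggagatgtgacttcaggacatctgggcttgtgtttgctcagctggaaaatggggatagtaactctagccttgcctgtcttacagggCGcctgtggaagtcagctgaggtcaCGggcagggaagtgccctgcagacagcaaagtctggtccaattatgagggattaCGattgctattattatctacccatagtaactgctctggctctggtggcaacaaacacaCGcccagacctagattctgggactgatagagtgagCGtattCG
Dnmt3a largest gain, first 300 bases: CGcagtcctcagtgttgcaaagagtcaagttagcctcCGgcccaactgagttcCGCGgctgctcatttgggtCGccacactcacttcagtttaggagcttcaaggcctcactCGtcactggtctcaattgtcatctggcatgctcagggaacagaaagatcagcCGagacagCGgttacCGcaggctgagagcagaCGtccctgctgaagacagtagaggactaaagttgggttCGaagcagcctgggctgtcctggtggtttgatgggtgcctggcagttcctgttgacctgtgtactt
Dnmt3a before the internal start: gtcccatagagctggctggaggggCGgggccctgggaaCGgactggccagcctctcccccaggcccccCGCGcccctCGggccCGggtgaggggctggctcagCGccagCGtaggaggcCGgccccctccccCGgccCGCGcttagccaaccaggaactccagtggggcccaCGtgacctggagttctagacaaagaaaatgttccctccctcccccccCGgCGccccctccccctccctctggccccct
Tet2: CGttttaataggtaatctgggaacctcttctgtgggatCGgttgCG
Tet3: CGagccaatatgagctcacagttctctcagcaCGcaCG
The loss DMR held 7 CpGs in 286 bases, and the printed stretch of the gain DMR held 11 in 300. The 250 bases before the internal start site held 15 CpGs, and the DMRs at *Tet2* and *Tet3* held 3 each.

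*Dnmt3a* held 8 loss and 5 gain DMRs, all of them inside the gene body (chr12:3806980-3914443, plus strand, 107 kb). The window of the gene and 10 kb to either side held 1836 CpGs, 80 of them (4.36%) in DMRs, and 7.08 DMRs per 1000 CpGs. Over the whole genome there were 0.859 DMRs per 1000 CpGs, and over the windows of all genes together 1.06. Of 26,089 RefSeq genes, 142 (0.544%) held at least as many DMRs as *Dnmt3a*. The window of *Dnmt3a* was long, 127 kb against a median of 33.5 kb over all genes. Among the 1280 genes with as many or more CpGs in the window, 69 (5.39%) held at least as many DMRs.

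The loss and the gain DMRs of *Dnmt3a* did not mix along the gene. All 8 losses lay in the 5′ part, from 1.82 to 51.1 kb downstream of the upstream start site, and all 5 gains lay further 3′, from 77.4 to 90.5 kb. The direction changed once, across a stretch of 26.0 kb with 305 CpGs and no DMR. Such an order was not particular to *Dnmt3a*. At least 5 losses together with at least 5 gains were found at 19 of 26,089 genes (0.0728%), and a single change of direction was found at 5 of these (26.3%), which are *Dnmt3a* and 4 other genes. This count was made after the order in *Dnmt3a* had been seen. A further 16.9 kb with 258 CpGs between the last gain DMR and the end of the gene held no DMR.

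**Figure D1:**
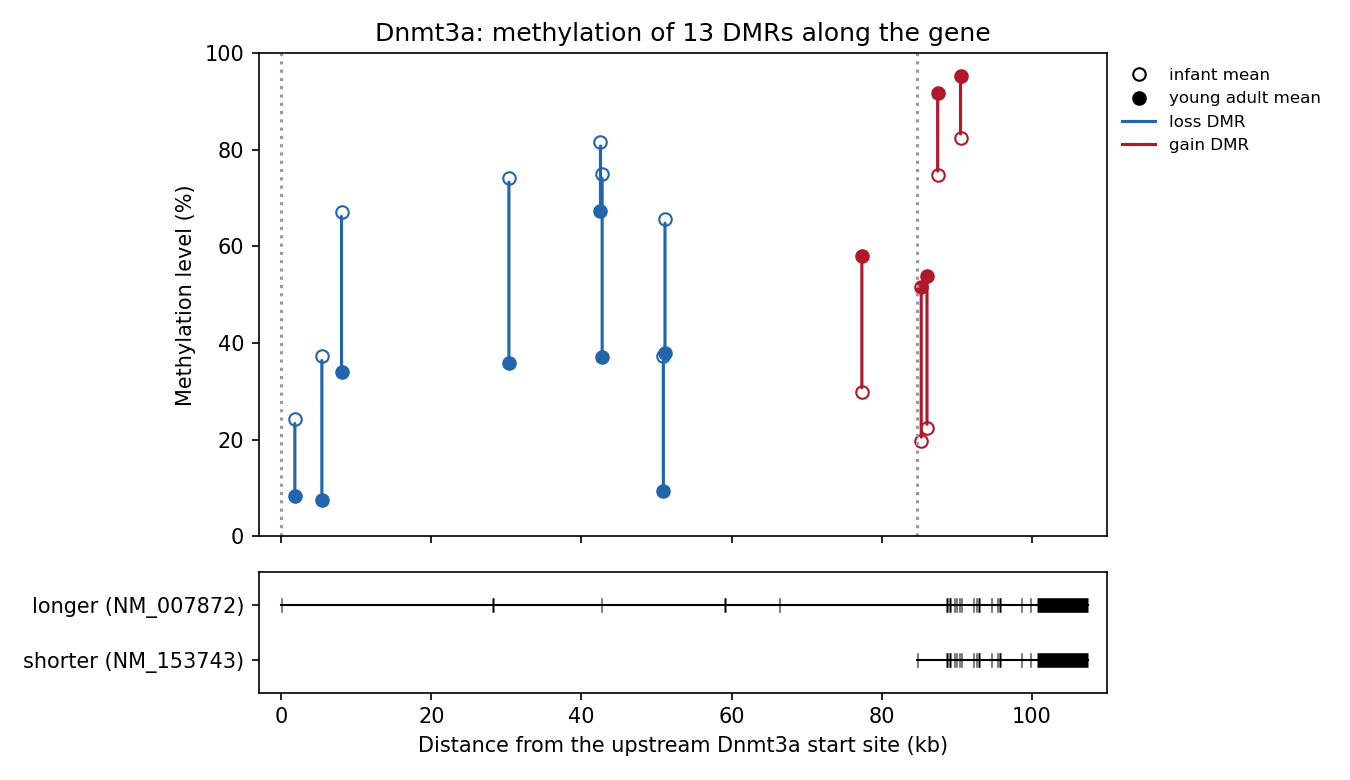
Mean methylation level (%) of the 13 Dnmt3a DMRs in infant (open circles) and young adult EC (filled circles), by the distance of the DMR midpoint from the upstream start site in kb. Blue marks losses and red gains, dotted lines mark the upstream and the internal start site, and the lower panel shows the exons of the longer and the shorter transcript. The 8 losses lie between 1.82 and 51.1 kb and the 5 gains between 77.4 and 90.5 kb, around the internal start site at 84.8 kb.

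The losses began close to the upstream start site (position 3806980), which makes the long form. Another curated start site lies near it, at position 3807160, 1.64 kb from the midpoint of the first loss DMR. Distances given here are from the former. Both start sites lie in a CpG island of 2327 bp, and no DMR lay in that island. The loss DMR nearest to it (chr12:3808748-3808845, intron 1, 3 CpGs) began 269 bp beyond the island and went from a mean of 24.2% in infants to 8.29% in young adults. A DMR 3443 bp further on (chr12:3812289-3812500, intron 1, 4 CpGs) went from 37.3% to 7.64%, and the next one (chr12:3814887-3815138, intron 1, 4 CpGs) from 67.1% to 34.0%. Infant methylation thus differed widely among the 3 DMRs of intron 1, and in young adult EC 2 of them were under 10%.

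The largest loss was in intron 2 (chr12:3837171-3837456, 7 CpGs), where methylation went from 74.1% to 36.0%, a difference of -38.2 percentage points. Of all loss DMRs of the list, 74.2% had a smaller difference. A loss of nearly the same size had its midpoint in exon 3 (chr12:3849674-3849798), which encodes an N-terminal part of the long form that DNMT3A2 lacks. There the level went from 74.9% to 37.2%. With 11 CpGs in 125 bp this DMR was dense and overlapped a computed CpG island, and 98.0% of all loss DMRs held fewer CpGs. Only 77 bp before it, in intron 2, a DMR with 3 CpGs (chr12:3849433-3849596) went from 81.6% to 67.3%, the smallest loss in the gene. These neighbouring DMRs stood 6.67 points apart in infant EC and 30.1 points apart in young adult EC.

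Another close pair of losses lay in intron 3, 91 bp apart. The first (chr12:3857826-3857953, 3 CpGs) went from 37.3% to 9.40% and the second (chr12:3858045-3858165, 4 CpGs) from 65.7% to 37.9%. Their differences were -27.9 and -27.8 points, while their levels stood 28.4 points apart in infants and 28.5 points apart in young adults. Across the 8 losses the median level was 66.4% in infants and 35.0% in young adults, and 3 of the 8 were below 10% in young adults, against 16.8% of all loss DMRs. The cutoff of 10% was not planned, so this share is description only.

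The gains surrounded the internal start site of *Dnmt3a* (position 3891744), which makes DNMT3A2 and lies 84.8 kb downstream of the upstream one. All 5 gains and none of the losses lay within 10 kb of it, and 4 of the 5 lay in intron 6 of the long transcript (22.1 kb). The largest gain began 68 bp after the end of exon 1 of the short transcript (chr12:3891929-3892559, in its intron 1) and went from an infant mean of 19.7% to a young adult mean of 51.7%, a difference of 32.0 points. This DMR spanned 631 bp and 19 reference CpGs and overlapped 2 of the 4 computed CpG islands within 1 kb of the start site. In the whole list 3 gain DMRs, this one included, held at least as many CpGs, and 20 were at least as wide. A second gain DMR followed after 250 bp (chr12:3892810-3893207, 8 CpGs) and went from 22.3% to 53.8%. No DMR lay in the 250 bases before the start site printed above, which were rich in CpGs. Whether these CpGs reached the coverage minimum of the study is not known.

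The other gains were further from the internal start site. One lay 7.41 kb upstream of it (chr12:3884152-3884518, 6 CpGs) and went from 29.9% to 58.0%. One lay 2.69 kb downstream (chr12:3894221-3894639, 5 CpGs) and went from 74.7% to 91.8%. The fifth lay 5.73 kb downstream, in intron 11 of the long and intron 6 of the short transcript (chr12:3897438-3897520, 3 CpGs), and went from 82.4% to 95.2%, the smallest gain in the gene. Of the 5 gains, 3 went from below 30% to above 50%, as did 6.82% of all gain DMRs, and 2 that were already above 70% ended above 90%, where 24.3% of all gain DMRs ended. These cutoffs were not planned, and some lie close to the levels of these DMRs, so the shares are description only.

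**Figure D2:**
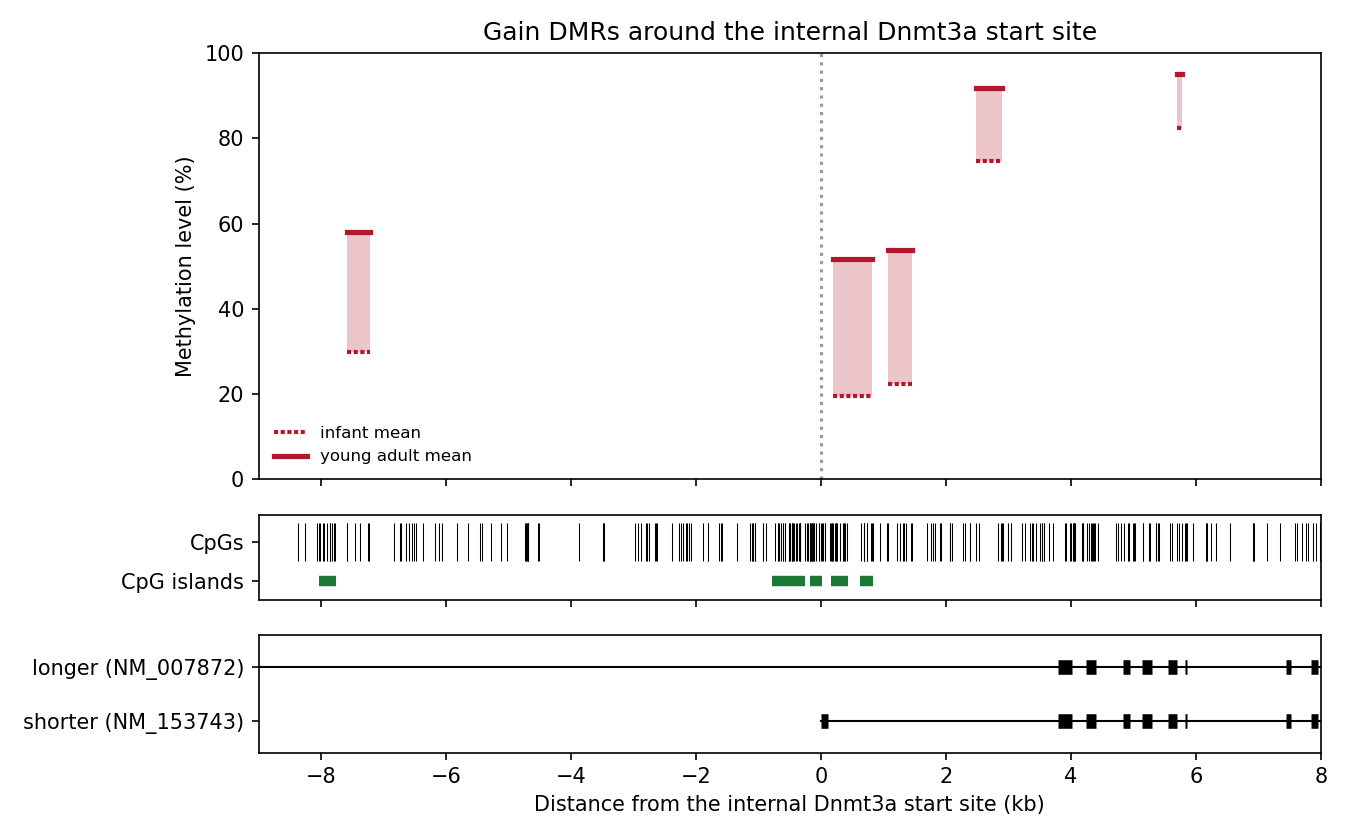
The 5 gain DMRs of Dnmt3a drawn to scale around the internal start site (0 kb), with the mean methylation level (%) of infant (dotted line) and young adult EC (solid line). The middle panel shows each CpG of the reference and the computed CpG islands, and the lower panel the exons of both transcripts. The 2 DMRs just downstream of the start site go from 19.7% to 51.7% and from 22.3% to 53.8%, and those at 2.69 and 5.73 kb start above 70%.

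The gain DMRs of *Dnmt3a* were wide. They spanned 83 to 631 bp (median 398 bp) with a median of 6 CpGs, against a median of 123 bp and 3 CpGs for all gain DMRs, and 4 of the 5 were wider than 94.9% of them or more. The losses spanned 98 to 286 bp (median 146 bp, 4 CpGs), close to the 131 bp and 3 CpGs of all loss DMRs. In size of the difference, the gains of *Dnmt3a* had a median of 28.1 points against 20.4 points for all gains, and the losses -28.7 against -32.5 points for all losses. In the deposited list the nearest promoter of 8 of the 13 DMRs was that of a *Dnmt3a* transcript. For the other 5, all of them losses, it was that of *Dnmt3aos*, a non-coding RNA on the opposite strand within the gene, whose body held none of them. The predicted gene Gm31623 on the minus strand overlapped 4 of the gains. Because bisulfite levels belong to a position and not to a transcript, none of these values can be given to 1 of the overlapping genes.

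The TET genes, whose proteins oxidise 5-methylcytosine, held 2 DMRs of opposite direction. *Tet2* (chr3:133463677-133544390, minus strand) had 1 gain DMR of 3 CpGs in 46 bp, upstream of the gene. Its infant mean was 51.9% and its young adult mean 78.7%, a difference of 26.9 points that was larger than 77.9% of all gains. Its midpoint lay 1127 bp upstream of the curated start site, outside the promoter as defined here (1 kb upstream to 100 bp downstream), and 382 bp upstream of the start of a predicted *Tet2* transcript. The next listed DMR was 418 kb from the gene, on its downstream side.

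*Tet3* (chr6:83362373-83456392, minus strand) had 1 loss DMR of 3 CpGs in 38 bp. It went from 84.0% to 41.7%, and the difference of -42.3 points was the largest of all 15 DMRs, with 85.7% of all loss DMRs smaller. It lay in intron 3 of the transcript from the upstream start site, 16.8 kb from that site, and 2.08 kb downstream of the second start site. A single region of so few CpGs stood for the whole gene, whose window held 1735 CpGs (0.576 DMRs per 1000). *Tet1* (82.8 kb), the third member of the family, had no DMR among the 1172 CpGs of its window, and the nearest listed DMR, a loss, was 64.3 kb upstream of its start site.

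No DMR was listed at the genes of maintenance methylation or at *Dnmt3b*. *Dnmt1*, the maintenance methyltransferase, has 3 curated start sites, and the DMR nearest to any of them, a loss, was 57.9 kb away. *Uhrf1*, its partner, had none among 705 CpGs, and *Dnmt3b*, the second de novo methyltransferase, none among 735. The windows of *Dnmt1*, *Dnmt3b*, *Uhrf1* and *Tet1* held 3884 CpGs in all. At the edge of the 10 kb rule, the outermost assigned DMR was that of *Tet2*, at 1.13 kb. The nearest ones left out were a gain from 5.04% to 27.8% located 13.3 kb upstream of *Uhrf1*, in the body of *Plin3*, a loss from 55.8% to 15.1% located 17.2 kb upstream of *Tet3*, and a gain from 77.0% to 92.9% located 37.6 kb downstream of *Dnmt3b*.

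Taking the 7 genes as a list, 3 held a DMR, where 26.6% of all genes did. A loss DMR was found at 2 of them (background 12%) and a gain DMR at 2 (background 18.4%). The windows of the 7 genes spanned 40 to 127 kb, against a median of 33.5 kb over all genes, so these shares are not matched for length. With *Dnmt3a* there were 1.78 DMRs per 1000 CpGs in the 7 windows, and without it 0.304, below the 0.859 of the genome. *Dnmt3a* held 86.7% of the 15 DMRs, and the counts of the list are mostly those of this gene. The 15 DMRs comprised 9 losses (median -29.6 points, range -42.3 to -14.3) and 6 gains (median 27.5 points, range 12.8 to 32.0), or 40.0% gains against 54.1% in the list. This order turned with the rule of assignment. When a DMR was counted only for the gene with the nearest start site, or by the nearest promoter in the deposited list, the members held 4 losses and 6 gains (60.0% gains). The loss majority therefore rested on the 5 losses of *Dnmt3a* whose nearest promoter was that of *Dnmt3aos*.

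**Figure D3:**
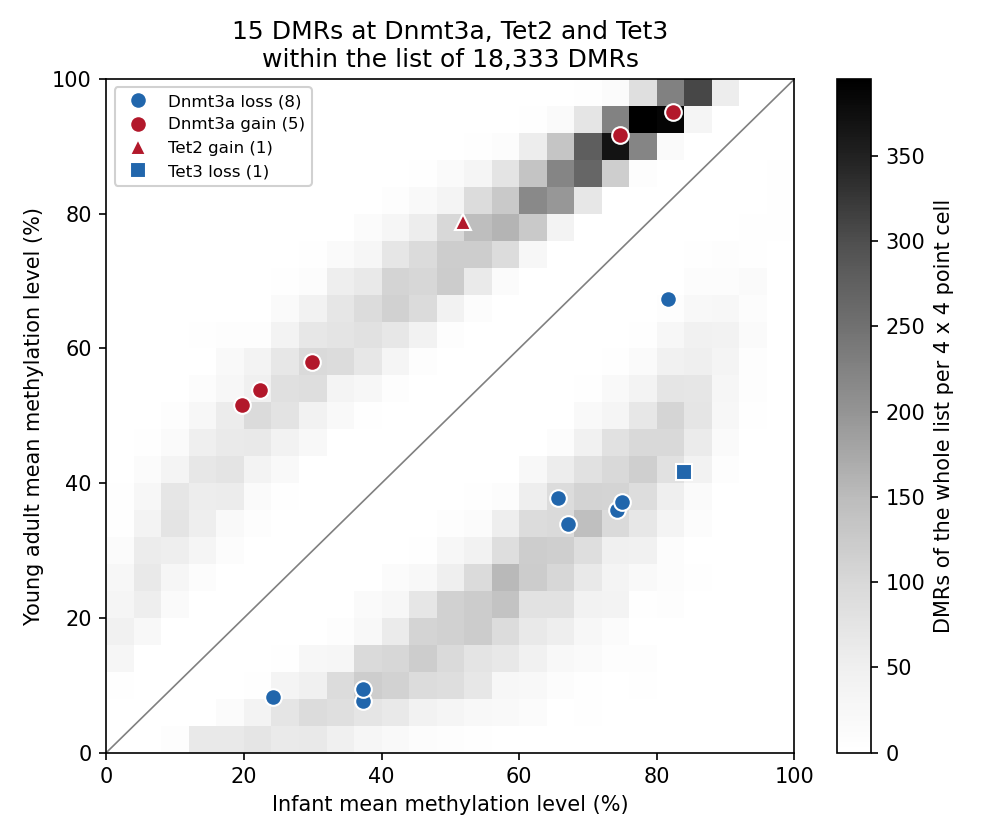
Mean methylation level (%) in infant (x axis) and young adult EC (y axis) of the 15 DMRs at Dnmt3a (circles), Tet2 (triangle) and Tet3 (square), over the number of DMRs of the whole list in each cell of the grey grid. The line marks equal levels. The 6 gains lie above it and the 9 losses below it, inside the range that the list of 18,333 DMRs fills.

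By position, 13 of the 15 midpoints lay in introns, 1 in an exon and 1 upstream of the gene, and 0 at a curated promoter. The same shares over all DMRs were not computed, and the rule of assignment itself favours gene bodies. The paper reports that its DMRs as a whole were enriched in introns and depleted at transcription start sites. These counts therefore show no trait of the 7 genes. Computed CpG islands overlapped 1 of 9 losses, where 11.6% of all losses did, and 1 of 6 gains, where 15.8% of all gains did. Known motifs were searched on both strands in the 200 bp around each midpoint. The parts of wider DMRs outside these windows, such as most of the 631 bp of the largest gain, were not searched. The ETS core GGAAG, bound by factors such as ERG and ETS1 that are expressed in EC, was found in 10 of 15 windows (7 of 9 losses and 3 of 6 gains), and in 55.5% of the windows of all DMRs. The GATA motif AGATAA was found in 2 windows (11.7% of all) and the AP-1 motif TGANTCA in 1 (6.55% of all), all of them losses of *Dnmt3a*. The E-box CACGTG was found in 0 of 15 windows and in 4.19% of all. The same held for the SP and KLF motif GGGCGG, which 5.90% of all windows held. No window held the FOX motif TGTTTAC, found in 4.34% of all, or the SOX motif ACAATG, found in 10.2% of all. The STAT motif TTCNNNGAA was also in 0 of 15, against 6.52% of all. A match describes letters in the sequence and not binding, and with 15 windows these shares are coarse.

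Other genes of the pathway held fewer DMRs than *Dnmt3a*. Of 46 genes in 7 lists by role, 14 (30.4%) held a DMR, close to the 26.6% of all genes, 8 (17.4%) a loss and 8 (17.4%) a gain. They held 27 DMRs, 15 losses (median -30.3 points) and 12 gains (median 23.1 points). Some of these lay outside the gene bodies, and whether they fell in the body of a neighbouring gene is not given here. Among 9 readers of methylated CpGs, 4 held 9 DMRs, 8 of them losses. For this and the following lists, the shares to compare with are 26.6% of all genes with a DMR and 54.1% gains among all DMRs. *Mbd2*, which encodes a methyl-CpG binding protein of the NuRD repressor complex, had 6 of these 9 DMRs, all in its body and all losses, with differences from -37.8 to -17.9 points. Along *Mbd2* there was no gain.

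Of 7 oxidation partners and cofactor genes, 4 held 8 DMRs, 4 of each direction. *Cxxc5*, which encodes a CXXC protein that binds TET2, gained methylation at 3 DMRs of its body, from 29.3% to 54.9%, from 26.3% to 61.6% and from 42.3% to 63.7%. *Idh2*, the mitochondrial isocitrate dehydrogenase that makes the TET cosubstrate 2-oxoglutarate, had 2 losses, both in its flank, from 48.4% to 17.5% and from 52.5% to 18.5%. *Kdm2b*, which encodes a CXXC histone demethylase that binds CpG islands, had 1 loss from 48.5% to 16.1% and 1 gain from 14.3% to 35.2%. 

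Of 9 base excision and repair genes, 2 held 5 DMRs, all outside the gene bodies. *Gadd45g*, of a stress-induced family linked to active demethylation, had 3 gains of 22.6 to 24.5 points, and its relative *Gadd45b* 1 gain from 51.1% to 68.2% and 1 loss from 47.6% to 26.4%. Of 6 genes of the UHRF1 axis and replication only *Usp7*, a deubiquitinase that binds DNMT1 and UHRF1, held DMRs, and both were losses, from 69.1% to 28.1% and from 72.4% to 49.5%. Of 5 genes of de novo methylation and its chromatin signals, 3 genes of imprint protection and 7 of methyl donor supply, 1 each held a single gain DMR. *Cxxc5* and *Gadd45g* each held more gains than any member except *Dnmt3a*, and *Mbd2* was the only gene of the 46 with more than 3 DMRs.

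**Figure D4:**
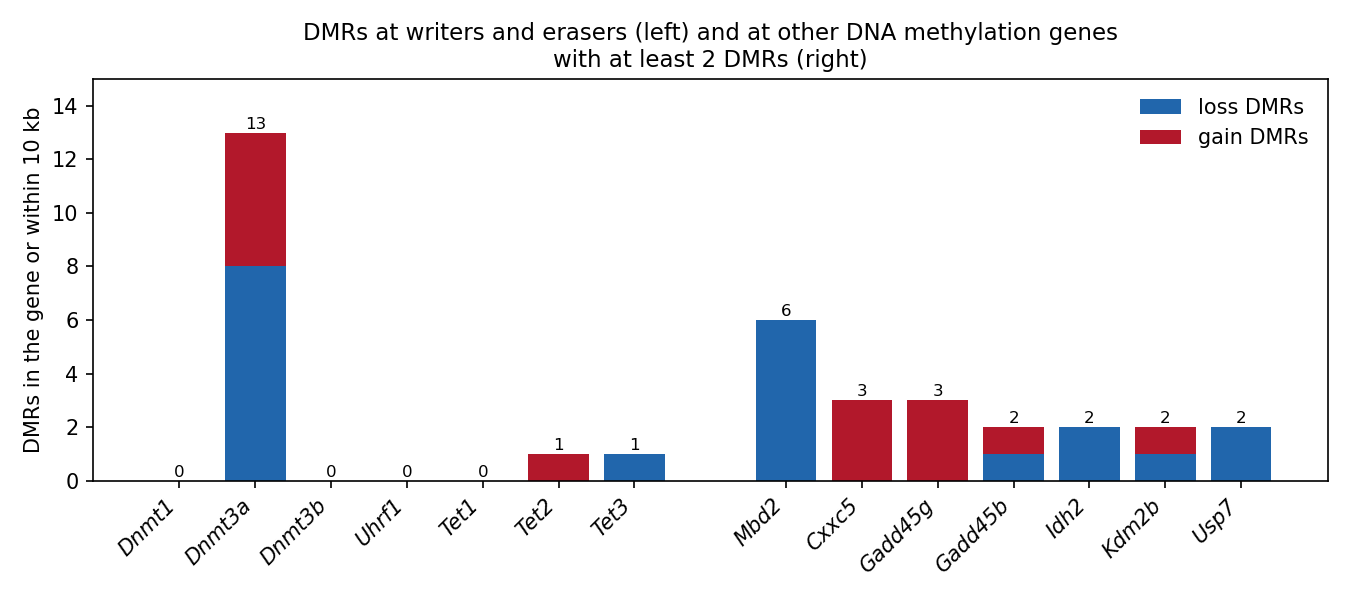
Number of loss (blue) and gain (red) DMRs in the gene or within 10 kb of it, for the 7 writers and erasers (left) and for the other DNA methylation genes with at least 2 DMRs (right). Dnmt3a stands at 13, Mbd2 at 6 with losses only, and Dnmt1, Dnmt3b, Uhrf1 and Tet1 at 0.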

How the data were processed

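The authors trimmed reads with SeqPrep, aligned them with BWA (0.6.1) to a converted mm10 genome, removed duplicates with Picard and called DMRs with bsseq in R (3.2.2), as regions of at least 3 consecutive significant CpGs above a coverage minimum whose group means differed by at least 10%. In the deposited list each group mean is a fraction, averaged by the authors over the CpGs of a DMR and the 3 samples of a group. The nearest promoter in the list came from HOMER. The fractions were converted here to percent and the infant mean was subtracted from the young adult mean. The smallest difference in the list was 10.0 points and the fewest reference CpGs were 3. Positions were converted to run from the C of the first to the G of the last CpG (1-based), and 18,333 of 18,333 DMRs began and ended at a CpG. Gene bodies were the union of curated RefSeq transcripts (mm10, GRCm38.p6) of 26,089 genes. CpG islands were computed from the sequence (at least 200 bp, GC of at least 50%, observed to expected CpG above 0.6). Promoter sequences of 7 of 7 members were found in RefSeq. Python 3.11.15, numpy 2.4.6, pandas 2.3.3 and scipy 1.17.1 were used, and assignment and merging were tested on simulated data.

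The members and lists were chosen with earlier results of these data known. The genes named were all 7 members with their DMRs, the other DNA methylation genes with at least 2 DMRs, and neighbours whose body held a DMR of a member. *Plin3* and *Dnmt3aos* were named outside this rule, after their values were seen. Because the list holds group means, no test was made. The alternatives tried were other windows, other rules of assignment to a gene, stricter differences and CpG numbers, and merging of neighbouring DMRs.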

Additional observations from a re-analysis of the deposited data

How the results depend on the processing

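The counts rest on the window, the rule that ties a DMR to a gene and the thresholds of the list. With the gene body only, *Tet2* had 0 DMRs and the other DNA methylation genes 17 with 6 gains. With 20 kb to either side *Uhrf1* had 1 and *Tet3* 2, and with 50 kb *Dnmt3b* also had 1, *Uhrf1* 1 and *Tet3* 2. When a DMR was counted only for the gene with the nearest start site, or by the nearest promoter in the deposited list, *Dnmt3a* held 8 DMRs and the members 4 losses. With a difference of at least 30 percentage points 6 DMRs were left (4 losses, 2 gains), 5 at *Dnmt3a* and 0 at *Tet2*. With at least 4 CpGs 9 were left (5 losses) and with at least 5 CpGs 6 (2 losses), all 6 of them at *Dnmt3a*, and *Tet2* and *Tet3* had 0 under both. These settings use fewer DMRs by construction. The gain share of the members (40.0%, 95% exact interval 16.3 to 67.7%) was 60.0% under both rules by nearest start site or promoter, above the 54.1% of the list instead of below it. With at least 5 CpGs it was 66.7%, where 25.4% of all DMRs of that size were gains. The interval covers counting error only and treats the 15 DMRs as independent, although 13 of them lay in *Dnmt3a*. It cannot place the share above or below that of the list. The other counts stayed within 1.5 times of the value in the report and the medians within the spread of the members' DMRs, and no median changed sign.

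No paired analysis was possible because the list holds group means without values per sample. For the same reason the planned permutation test per DMR and the fits that leave out 1 replicate were not run. Coverage per CpG was not used, so regions too shallow to be called cannot be told from regions without a difference.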
